A study of Mus musculus with 9 samples.

Results

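The cells described here are neuroblasts of the adult mouse forebrain that carried transcripts of Foxp2, a forkhead transcription factor, or of Sfrp2, a secreted inhibitor of Wnt signalling. They were picked cell by cell from their counts of unique molecular identifiers (UMIs, each standing for 1 captured transcript). A member had at least 1 UMI of Dcx, the microtubule protein doublecortin that marks neuroblasts, at least 2 UMIs of Foxp2 and Sfrp2 together, and at most 1 UMI of the transcription factors Zic1 and Zic2 together. It also had at most 1 UMI over the cycling genes Top2a, Mki67, Nusap1 and Cenpf, and at most 1 over the glial glutamate transporters Slc1a2 and Slc1a3. Of 18390 retained cells, 1189 (6.47%) met the rule, and they were 23.3% of the 5111 neuroblasts that met the Dcx, cycling and glial limits (gated neuroblasts).

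Neuroblasts arise from neural stem cells of the ventricular-subventricular zone (vSVZ), migrate along the rostral migratory stream (RMS) and become inhibitory granule and periglomerular interneurons of the olfactory bulb. The stem cells carry a positional identity, set by transcription factors such as the Zic, Pax6, Gsx2 and Nkx2-1 families, that fixes which interneuron types they produce. Foxp2 acts as a repressor in several groups of forebrain neurons, Sfrp2 binds Wnt ligands outside the cell, and Prokr2, the prokineticin receptor, is needed for neuroblasts to enter the olfactory bulb.

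The study compared young and old male mice with and without receptors for type-I and type-II interferon. All mice were of the TiCY line on a C57BL/6 background, in which tamoxifen switches on the yellow fluorescent reporter eYFP in cells that use the Tlx (Nr2e1) driver, so the reporter follows Tlx-expressing stem cells and their progeny. Mice with intact receptor genes (wild type, WT) were 16 weeks (young, tamoxifen at 10 weeks and a 6-week chase) or 80 weeks old (old, tamoxifen at 71 weeks and a 9-week chase). TiCY-IFNAGRKO mice (KO), which lack the receptor genes Ifnar1 and Ifngr1, were 16 weeks (young, tamoxifen at 7 weeks, chase of 9 weeks) or 92 to 105 weeks old (old, tamoxifen at 85 and 98 weeks, chase of 9 weeks). The tamoxifen ages and chase given for old KO mice do not add up to their labelled age. eYFP+ and GLAST+ cells were sorted from the vSVZ, and eYFP+ cells and eYFP- cells low in PSA-NCAM from the pooled striatum, RMS and olfactory bulb (RoB), without CD45+, Ter119+ or O4+ cells.

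Cells of the 2 mice of a group were labelled with hashtags and pooled in 1 droplet reaction, so each group is 1 library. A hashtag could be called in 11.6% of members, 2 to 16 cells for each tag in a library, which left the mice of a library unseparated here, and differences between ages or genotypes were not tested. The 4 libraries served instead as the replicates of comparisons between classes of cells inside each library. Retained cells numbered 5916 and 2423 in the young and old WT libraries and 6638 and 3413 in the young and old KO libraries, with median depths of 5067, 7437, 7133 and 7091 UMIs. Any pair of libraries shared 3 to 9 barcodes. In what follows, 4 values in a row are for the WT libraries (young, then old) and the KO libraries (young, then old), and levels are CPM, the UMIs of a gene per 1000000 summed UMIs of a class in a library. CPM is not divided by gene length, so it compares classes for 1 gene, not genes with each other, and a lower level cannot be told apart from a lower share of cells with the transcript.

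Members were found in all 4 libraries, 459, 67, 519 and 144 cells. Their share of the gated neuroblasts was 19.5% in young WT mice (95% Clopper-Pearson interval 17.9 to 21.1) and 21.2% in old ones (16.8 to 26.1), and 27.1% (25.1 to 29.2) and 27.5% (23.7 to 31.5) in young and old KO mice. The KO intervals lay above that of WT young and overlapped that of WT old. The rule asks for a fixed number of UMIs, and depth differed between libraries. Gated neuroblasts held a median of 4308 UMIs in WT young and 5669.5, 5794 and 5536.5 in the other libraries. With every cell thinned to 1000 UMIs before the rule was applied, the shares were 4.29% (3.29 to 5.49), 3.69% (1.60 to 7.13), 4.71% (3.66 to 5.95) and 5.78% (3.51 to 8.87), and all 4 intervals overlapped. Thinning left 60, 8, 66 and 19 members. Among cells with 3000 to 20000 UMIs the shares were 19.0% (17.3 to 20.9), 22.6% (17.9 to 27.8), 27.7% (25.6 to 29.9) and 27.9% (24.0 to 32.1). There the KO intervals again lay above that of WT young and overlapped that of WT old. The part of depth was not tested.

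Of all retained cells, members were 7.76%, 2.77%, 7.82% and 4.22%, lower in both old libraries than in both young ones. Gated neuroblasts as a whole were 39.8%, 13.0%, 28.8% and 15.4% of retained cells, in the same young to old direction. The number of cells loaded from each sort gate cannot be told apart from these shares. Intervals on counts and shares cover counting error only.

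**Figure D1:**
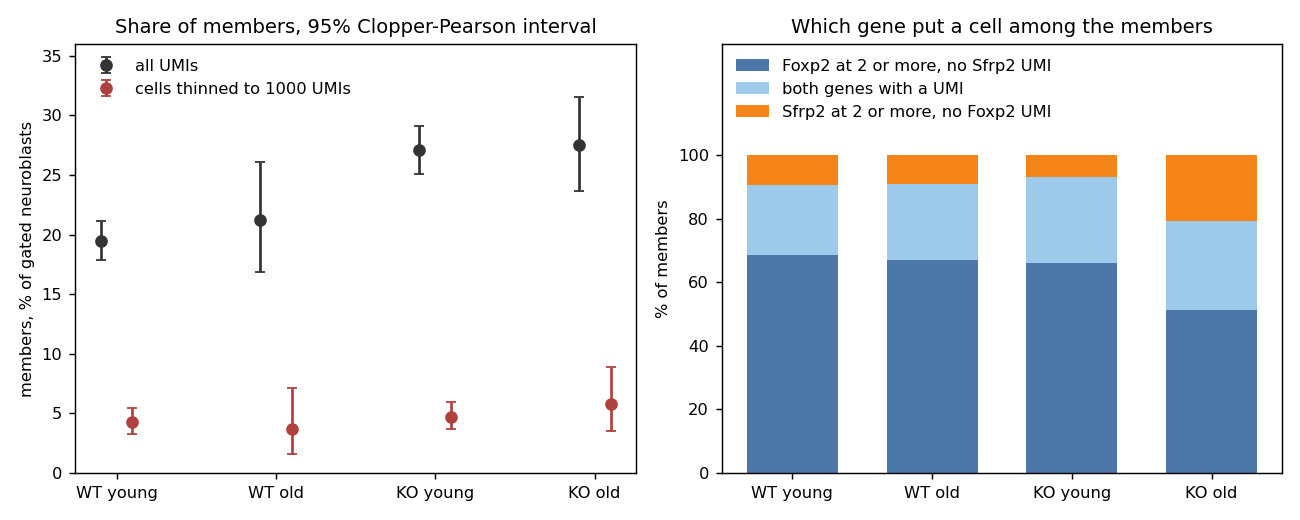
The left panel plots members as a percent of gated neuroblasts in each library, from all UMIs (dark) and after thinning each cell to 1000 UMIs (red), with 95% Clopper-Pearson intervals. The right panel splits the members of each library by the gene that carried them: KO old held 20.8% of members with no Foxp2 UMI, against 6.94% to 9.37% in the other libraries.

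Foxp2 carried most members. Foxp2 alone (at least 2 UMIs and none of Sfrp2) was found in 777 members, both genes in 297 and Sfrp2 alone in 115. The Sfrp2-only cells numbered 43, 6, 36 and 30, so KO old had the highest share of them and WT old contributed 6 cells. A median member held 3 UMIs of the 2 genes together and the highest 15. Since both genes chose the cells, their levels are a description: Foxp2 stood at 595, 593, 544 and 490 CPM and Sfrp2 at 162, 120, 131 and 246 CPM. In the annotation, Foxp2 lies at chr6:14901349-15441977 on the plus strand, Sfrp2 at chr3:83766321-83774316 on the plus strand and Prokr2 at chr2:132337733-132385447 on the minus strand (GRCm38).

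The threshold cut through a graded pattern. Among gated neuroblasts with Zic1 and Zic2 at 1 UMI or less, 2977 had no UMI of Foxp2 or Sfrp2, 787 had 1 (just outside the rule), 486 had 2 (just inside), 259 had 3 and 444 had 4 or more. Prokr2 stood at 8.57, 25.9, 29.3, 33.6 and 44.0 CPM over these 5 steps. It did not enter the rule, but it is among the markers given for these cells, so its rise is not independent. Pbx3, a homeodomain partner of Hox and Meis factors, stood at 401, 758, 895, 978 and 1044 CPM. Cells with 1 UMI therefore lay nearer to the members than to the cells with none for both genes, and the rule leaves such cells outside.

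The marker set of these cells was Dcx, Foxp2, Sfrp2 and Prokr2. A Prokr2 UMI was found in 14.7% of members, in 5.26% of Zic neuroblasts (at least 2 UMIs of Zic1 and Zic2, at most 1 of Foxp2 and Sfrp2), in 5.53% of the remaining neuroblasts (at most 1 UMI of either pair) and in none of 326 microglia-type cells (interval up to 1.13%). Median depths were 4810, 6433.5, 5141.5 and 5280 UMIs, so members were the shallowest of these classes. For Foxp2 the background differed by cell type: 1.53% of microglia-type cells had a UMI, as had 20.9% of endothelial-type cells (median 7215 UMIs, 39.9 CPM), 17.3% of the remaining neuroblasts (31.6 CPM) and 90.3% of members (557 CPM). The rule sets the Foxp2 values of both neuroblast classes, with at most 1 UMI of Foxp2 and Sfrp2 together in the remaining neuroblasts. They cannot be ranked against the endothelial-type cells, which had no such limit. Foxp2 was found outside neuroblasts in these libraries, while Sfrp2 was found in 1 of the endothelial-type cells (0.152%) and in none of 326 microglia-type cells.

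Transcripts of other cell types were scarce in members. Summed over 7 endothelial genes such as Cldn5 and Pecam1, members held 0.505, 2.66, 6.36 and 0 CPM, with 6, 6, 4 and 7 of the genes at 0. The 10 microglial genes summed to 149, 2.66, 10.6 and 4.04 CPM, and 276 of the 295 UMIs in WT young came from 1 cell. The 7 genes of olfactory ensheathing glia summed to 24.8, 95.7, 254 and 98.2 CPM, and 239 of the 720 UMIs in KO young came from 1 cell. Summed astroglial genes stood at 50.5 to 188 CPM and oligodendrocyte genes at 18.2 to 80.6 CPM. At least 10 UMIs of 1 of these 5 lists were found in 5 members, 9 Zic neuroblasts and 22 of the remaining neuroblasts. Predicted doublets were 7 of 1189 members (0.589%).

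The first comparison set members against the 152 Zic neuroblasts (48, 16, 70 and 18 cells), the other group that the rule separates by transcription factors. Both classes passed the same Dcx, cycling and glial limits in the same library, but these limits did not match them for maturity. Summed neuronal maturation genes stood at 3388, 4768, 3560 and 3727 CPM in members and at 4597, 14432, 5913 and 13369 CPM in Zic neuroblasts. Summed neuroblast identity genes stood at 33724.5, 28141, 31577 and 30432 CPM against 30835, 5277, 21801 and 5387 CPM. The part of maturity in the differences below was not tested. Members held more RNA of migrating-neuroblast genes, of the transcription factors Pbx3, Tshz1 and Tshz2, and of Mn1 and Dusp4. They held less of neuronal maturation genes and of Gad1, the GABA synthesis enzyme. With edgeR's quasi-likelihood test over the 8 class sums, library as block and Benjamini-Hochberg adjusted p under 0.05, 1602 of 8737 genes (18.3%) differed, 601 higher in members (6.88%) and 1001 lower (11.5%). The old Zic sums came from 16 and 18 cells, and with the young libraries alone 987 genes differed, of which 849 were among the 1602. Without KO young 799 genes differed.

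Mn1, a transcriptional coregulator, stood at 331, 367, 433 and 308 CPM in members and at 80.1, 0, 48.4 and 28.9 CPM in Zic neuroblasts, a log2 change of 3.10 ± 0.29 (SE, adjusted p = 3.01e-06). A UMI of Mn1 was found in 68.8% of members. Dusp4, a phosphatase that switches off MAP kinases, stood at 180, 133, 165 and 196 CPM against 21.1, 0, 24.2 and 0 CPM (log2 change 3.40 ± 0.34, adjusted p = 5.27e-06). For both genes every library's members lay above every library's Zic neuroblasts.

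Adarb2, an RNA-editing enzyme family member and a marker of some interneurons, stood at 83.4, 90.4, 91.5 and 112 CPM against 16.9, 18.4, 3.72 and 14.5 CPM (3.28 ± 0.34). Plxna4, a semaphorin co-receptor that steers axons and migrating cells, stood at 280, 298, 267 and 295 CPM against 92.8, 46.1, 48.4 and 43.4 CPM (2.35 ± 0.21). The groups did not overlap for either gene. The other genes of the 15 named as higher were D430041D05Rik, Chodl, Cacna2d3, Tshz2, Sox2ot, Flrt2, Vax1, Fgfr2, Cemip2, Trim59 and the EYFP transgene, with log2 changes from 2.05 to 3.28. They were found in 17.9% to 72.1% of members, and no single member held more than 2.24% of a gene's UMIs.

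Of the 15 genes named as lower, Calb2, Crhbp and Cpa6 had at most 1 UMI in members. Calb2, the calcium buffer calretinin of a granule and periglomerular cell type, stood at 0, 0, 0.353 and 0 CPM in members and at 114, 553, 93.1 and 484 CPM in Zic neuroblasts, 1 UMI against 204. Crhbp, which binds corticotropin-releasing hormone, had no UMI in members, which is at least 101-fold lower than its 52 UMIs in Zic neuroblasts when members are set at a floor of 3 counts over the class. Cpne6, a calcium-dependent membrane-binding protein of neurons, stood at 0.505, 16.0, 3.18 and 1.35 CPM against 71.7, 1243, 460 and 1656 CPM (log2 change -7.39 ± 0.31, adjusted p = 6.7e-10). These levels rested on few Zic cells: Crhbp was found in 10 of 152, Calb2 in 28 and Cpne6 in 41. The other named genes were Cpa6, Gabra5, Scgn, Necab3, Pcp4l1, Lrp1b, Scg2, Cds1, Necab2, Rprml, Fam81a and Shisa8, found in 9.21% to 30.9% of Zic neuroblasts.

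**Figure D2:**
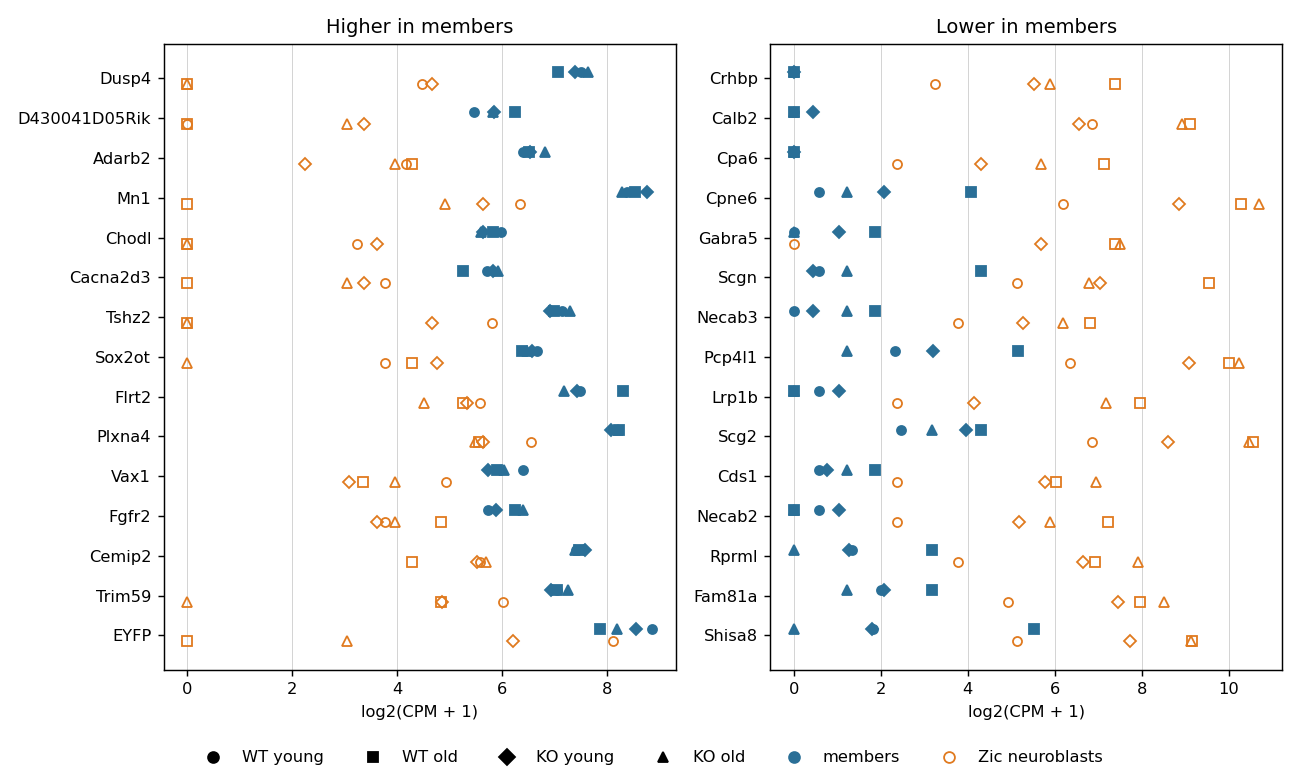
Levels as log2(CPM + 1) of the 15 genes named as higher (left) and the 15 named as lower (right) in members (filled, blue) than in Zic neuroblasts (open, orange), 1 symbol a library. On the left the blue symbols form a tight group, while the orange ones scatter down to 0. On the right the 2 old libraries (squares and triangles) hold most of the highest Zic values.

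Of 14 tested genes of neuroblast identity, 10 were higher in members and none lower, with a median log2 change of 1.26 beside 0.01 over all genes. Sox4, a transcription factor of early neurons, stood at 6260, 6239, 5984 and 6130 CPM against 3892, 810, 2642 and 651 CPM (1.94 ± 0.36, adjusted p = 0.00156). Nrep, a small cytoplasmic protein of immature neurons, stood at 905, 1037, 911 and 1152 CPM against 489, 221, 367 and 239 CPM (1.66 ± 0.22). Cd24a, Stmn1, Elavl4, St8sia2, Ncam1, Nnat, Tubb2b and Stmn2 were the others. The difference was smallest in WT young, where Tubb2b (3706 CPM in members, 3926 in Zic neuroblasts) and Stmn2 (3231 and 3369) did not differ in that direction. Without 1 library 4 to 10 of the 10 were still called, 4 of them without KO young. Stmn2 and Tubb2b were not called without cells that held 10 or more UMIs of another cell type.

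Neuronal maturation genes moved the other way, with 16 of 22 lower in members, none higher and a median log2 change of -1.94. Camk2b, a calcium-dependent kinase subunit of maturing neurons, stood at 11.6, 53.2, 21.2 and 10.8 CPM against 84.3, 967, 263 and 680 CPM (-3.93 ± 0.32, adjusted p = 9.47e-07). Snap25, a part of the vesicle fusion machinery, stood at 82.9, 253, 92.6 and 90.2 CPM against 194, 1621, 648 and 1851 CPM (-2.62 ± 0.34). Both Zic values of the old libraries were the highest. Without 1 library 14 to 16 of the 16 were still called, and 12 with the young libraries alone.

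The interneuron programme split. Prox1, Vax1, Dlx1, Dlx2 and Dlx6os1, all linked to the generation of ventral forebrain interneurons, were higher in members. Vax1, a ventral homeodomain factor, stood at 82.9, 58.5, 52.0 and 64.6 CPM against 29.5, 9.21, 7.45 and 14.5 CPM (2.25 ± 0.33). Sp8, Gad1, Slc32a1 and Dlx6 were lower. Sp8, a zinc finger factor of calretinin-type and dopaminergic periglomerular lineages, stood at 629, 691, 875 and 604 CPM against 1670, 1078, 1752 and 1207 CPM (-0.94 ± 0.16, adjusted p = 0.000742). Gad1, which makes GABA, stood at 126, 311, 154 and 170 CPM against 257, 1851, 747 and 1533 CPM (-2.16 ± 0.26). Of the 12 tested genes 5 were higher and 4 lower, and Dlx6os1 is antisense to Dlx6, whose reads cannot be told apart from it here because strand use in the counting was not given. Dlx2 and Slc32a1 were not called without WT old, KO young or KO old, Prox1 was not called without KO young, and Dlx1 had a log2 change of -0.15 when cells were thinned.

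Among positional transcription factors, 8 of 18 tested were higher and 3 lower. Pbx3 stood at 1054, 896, 914 and 1001 CPM in members and at 194, 470, 110 and 405 CPM in Zic neuroblasts (2.04 ± 0.27, adjusted p = 6.88e-05). Tshz1, a zinc finger factor needed for granule cell progenitors to migrate within the olfactory bulb, stood at 578, 763, 571 and 703 CPM against 181, 442, 277 and 390 CPM (1.17 ± 0.15). Members lay above Zic neuroblasts in every library for both. Meis1, Etv1, Bcl11b, Tshz2 and Zfhx3 were among the others that were higher. Pax6, a dorsal factor, and Sall3, both needed for dopaminergic periglomerular cells, were lower, as was Zic5, a neighbour in family to the genes of the rule. Pax6 stood at 15.7, 16.0, 13.4 and 14.8 CPM against 33.7, 18.4, 41.0 and 50.6 CPM. Without KO young 5 of the 8 and 1 of the 3 were still called.

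Migration and guidance genes were higher in 8 and lower in 3 of 21 tested. Prokr2 stood at 43.5, 47.9, 27.6 and 41.7 CPM in members and at 8.43, 18.4, 9.31 and 0 CPM in Zic neuroblasts (2.09 ± 0.44, adjusted p = 0.00375). Prokr2 is among the markers given for these cells, so its differences here and in the later comparisons are not independent of how they were proposed. Erbb4, the neuregulin receptor of migrating interneurons, stood at 238, 364, 229 and 299 CPM against 148, 203, 102 and 101 CPM (1.12 ± 0.17), without overlap. Plxna2, Robo1, Vldlr, Slit1, Plxna4 and Efnb2 were higher too. Robo1 and Slit1 lost their calls without KO young and Robo1 without WT young, and 2 of the 8 were still called when cells were thinned. Epha5, an ephrin receptor, stood at 23.7, 79.8, 19.1 and 32.3 CPM against 88.6, 1345, 421 and 1432 CPM (-4.02 ± 0.35), and Sema3c and the reelin adaptor Dab1 were lower with it.

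In the Wnt pathway 2 of 14 tested genes were higher, the ligand Wnt5a and the receptor Fzd2, and the R-spondin receptor Lgr5 was lower. Wnt5a stood at 106, 149, 137 and 151 CPM in members against 25.3, 64.5, 14.9 and 86.8 CPM (2.04 ± 0.31, adjusted p = 0.000231), and all members lay above all Zic neuroblasts. Lgr5 stood at 1.52, 21.3, 0.707 and 1.35 CPM against 4.22, 120, 22.3 and 123 CPM (-3.77 ± 0.66). Fzd2 was not called without KO young.

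Genes of finished olfactory bulb interneuron types were lower in members for 9 of 12 tested, with a median log2 change of -3.08. Synpr, a synaptic vesicle protein of granule cells, stood at 139, 189, 103 and 170 CPM against 540, 2284, 728 and 1837 CPM (-2.85 ± 0.21). Th, the dopamine synthesis enzyme, was found at 0, 101, 0.707 and 0 CPM against 16.9, 221, 74.5 and 217 CPM (-3.46 ± 0.78). Chodl was the exception, at 62.2, 55.8, 48.4 and 47.1 CPM against 8.43, 0, 11.2 and 0 CPM (2.86 ± 0.43). Pcp4, Penk, Nos1, Npy, Calb2, Cpne4 and Crhr1 were the other lower genes, of which Npy and Crhr1 were not called without cells holding UMIs of another cell type. Th and Cpne4 lost their calls without KO young.

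Of 4 striatal projection neuron genes, Pde1b and Rasgrp2 were lower, neither of them called without KO young, and no interferon receptor, none of 4 core interferon-stimulated genes and none of 12 immediate early genes passed the test. Among genes of other cell types, Clu (1 of 3 astroglial) and Vtn and Npy (2 of 4 of ensheathing glia) were lower, and Hes6 (1 of 5 of dividing progenitors) was higher. The 1 microglial gene tested did not pass, and no endothelial gene was high enough to be tested. Clu and Hes6 were not called without KO young, and without cells holding UMIs of another cell type Npy was not called and Vtn could not be tested.

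**Figure D3:**
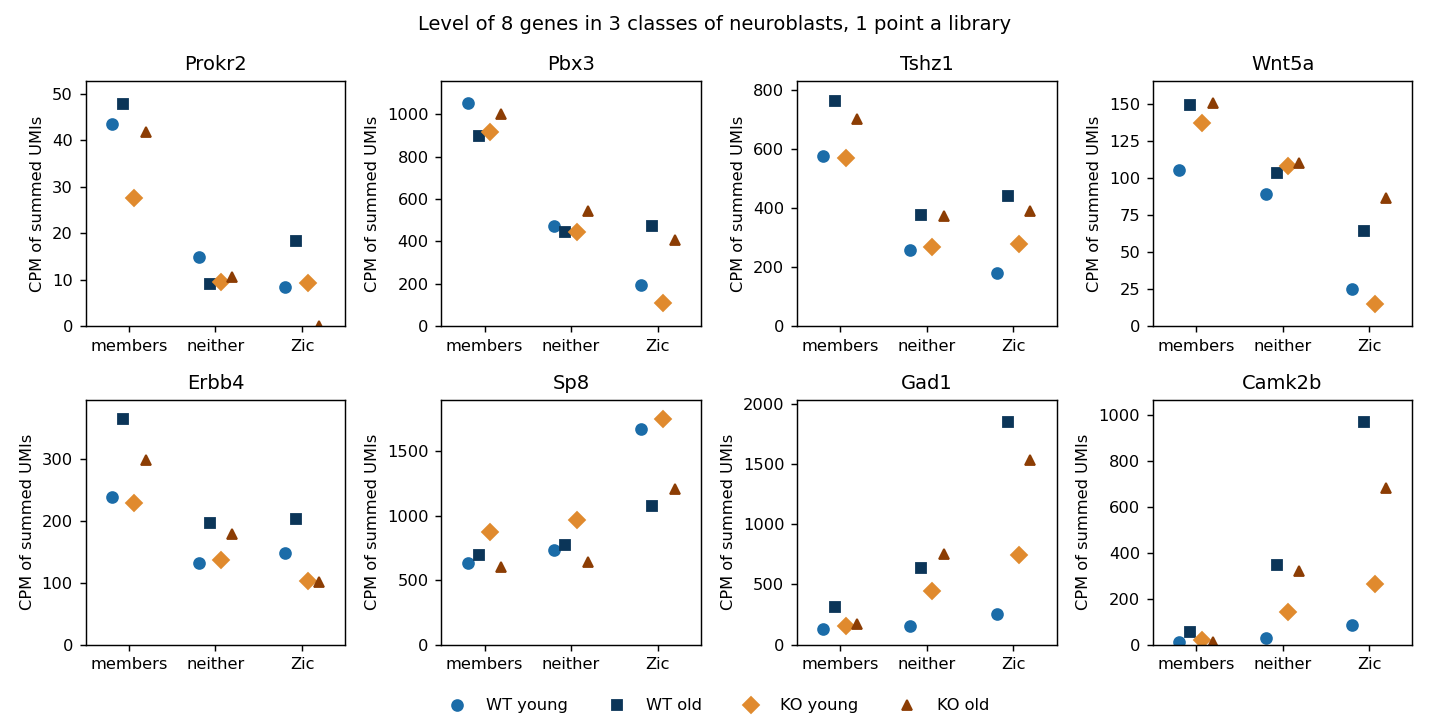
CPM of 8 genes in members, in neuroblasts with at most 1 UMI of either pair (neither) and in Zic neuroblasts, 1 symbol a library. Prokr2, Pbx3, Tshz1 and Erbb4 were higher in members than in both other classes, Wnt5a and Sp8 differed between members and Zic neuroblasts and did not pass the test against the neither class, and the highest Gad1 and Camk2b levels were those of Zic neuroblasts of the 2 old libraries.

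The second comparison set members against the 3764 remaining neuroblasts (1848, 233, 1322 and 361 cells), in the same fit. Fewer genes differed, 743 of 8737 (8.5%), with 173 higher (1.98%) and 570 lower (6.52%). KO young decided much of this count, since 197 genes differed without it. Members held more Adarb2, Prokr2, Pbx3 and Tshz1, and less of the genes of more mature neurons. Neuroblast identity genes separated the classes little: Nrep was the only 1 of 14 that passed (0.74 ± 0.19, adjusted p = 0.0249 by edgeR), and it was not called without WT old, KO young or KO old.

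Adarb2 stood at 83.4, 90.4, 91.5 and 112 CPM in members and at 32.2, 41.5, 37.4 and 43.1 CPM in the remaining neuroblasts (1.31 ± 0.14). Prokr2 stood at 14.8, 8.99, 9.46 and 10.5 CPM in the remaining neuroblasts (1.73 ± 0.21, adjusted p = 9.33e-05). For both genes every library's members lay above every library's remaining neuroblasts. Sema5a, a guidance molecule, stood at 62.7, 101, 62.2 and 84.8 CPM against 25.5, 52.6, 25.5 and 37.9 CPM (1.21 ± 0.15). Col11a1, Fgfr2, Egr3, Kif26a and Rims1 had log2 changes from 1.13 to 1.21, of which Egr3 and Rims1 were not called without KO young.

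Pbx3 stood at 471, 445, 445 and 542 CPM in the remaining neuroblasts (1.04 ± 0.23) and Tshz1 at 258, 377, 268 and 373 CPM (1.06 ± 0.13, adjusted p = 0.000104), both below every value of the members. Of 18 positional factors 3 were higher, these included, while Sall3 and Nr2f2 were lower. Erbb4 (0.81 ± 0.12), Robo2 (0.96 ± 0.25), Vldlr (0.50 ± 0.13), Plxna4 (0.66 ± 0.13) and Prokr2 were the 5 higher of 21 migration genes, and Epha4, Dab1, Sema3c and Epha5 were lower. Vldlr lost its call whichever 1 of the 4 libraries was left out, and Sall3, Nr2f2, Robo2, Plxna4 and Dab1 lost theirs without KO young.

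The 8 genes named as lower in members were each found in 4.06% to 8.69% of the remaining neuroblasts. Syt10, a synaptotagmin, stood at 4.04, 0, 0.707 and 2.69 CPM against 14.8, 59.5, 67.7 and 136 CPM (-4.65 ± 0.54). Pcp4l1, a relative of the calmodulin-binding Pcp4, stood at 4.04, 34.6, 8.13 and 1.35 CPM against 36.6, 228, 227 and 391 CPM (-4.43 ± 0.37). Ano3, Rprml, Fam81a, Kcnj4, Cpne6 and Scg2 fell by 3.98 to 4.39 on the log2 scale. Of 22 maturation genes 12 were lower and none higher (median -1.26 beside -0.01 over all genes), with Camk2b at 30.5, 344, 139 and 321 CPM in the remaining neuroblasts. Without KO young 3 of these 12 were still called.

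Of the other lists, Gad1 was the 1 lower of 12 interneuron genes, Lgr5 the 1 lower of 14 Wnt genes, and Pcp4, Penk, Nos1 and Crhr1 the 4 lower of 12 olfactory bulb subtype genes. Syt6, another synaptotagmin, was the 1 higher, at 67.2, 61.2, 53.7 and 60.6 CPM against 29.1, 32.5, 33.6 and 54.9 CPM (0.77 ± 0.18). Pde1b and Rasgrp2 were again lower. Without KO young Gad1, Lgr5, Crhr1, Nos1, Syt6, Pde1b and Rasgrp2 lost their calls. None of the genes of other cell types, interferon receptors, core interferon-stimulated genes or immediate early genes that could be tested passed.

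Foxp2 and Sfrp2 were each detected more often in cells that held the other. A Sfrp2 UMI was found in 188 of 967 gated neuroblasts with at least 2 Foxp2 UMIs (19.4%, interval 17.0 to 22.1) and in 7.61% (6.74 to 8.56) of the 3376 with none. By library the shares were 15.5%, 18.2%, 21.3% and 26.7% against 6.47%, 7.44%, 6.75% and 15.9%, higher in the Foxp2 cells of each. The reverse held as well, with Foxp2 in 124 of 241 cells with at least 2 Sfrp2 UMIs (51.5%, 45.0 to 57.9) and in 31.5% (30.2 to 32.9) of those with none. Zic1 or Zic2 was found in 0.517% of the Foxp2 cells against 8.59%. After thinning to 1000 UMIs, Sfrp2 was found in 6.10% against 3.20% and Foxp2 in 23.7% against 12.9%. By library, the thinned intervals were apart in both young libraries and overlapped in both old ones, for either gene. Thinned Sfrp2 was found in 3.64% against 2.79% in WT old and in 5.94% against 5.38% in KO old. For thinned Foxp2 the values were 27.3% against 9.15% and 17.3% against 12.2%.

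To describe what goes with each gene separately, gated neuroblasts were split by Foxp2 alone (at least 2 UMIs against 0), with Sfrp2 and the Zic genes left free. Of 9288 genes 1235 differed (13.3%), 475 higher (5.11%) and 760 lower (8.18%), and 513 differed without KO young. Sfrp2 rose with Foxp2, at 69.1, 45.5, 75.5 and 97.5 CPM against 25.6, 20.2, 20.3 and 54.4 CPM (1.44 ± 0.17, adjusted p = 3.21e-05). Zic1 stood at 0.617, 0, 0 and 7.36 CPM against 16.6, 51.9, 26.0 and 20.6 CPM (-4.43 ± 0.56), and Zic2 was lower too (-2.59 ± 0.39). Prokr2 stood at 40.1, 35.8, 26.5 and 25.8 CPM against 13.1, 8.65, 9.09 and 11.8 CPM (1.57 ± 0.20).

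The Foxp2 split also held Adarb2, Dusp4, Rims1, Fgfr2 and Sema5a among its higher genes, with log2 changes of 1.25 to 1.42. Syt10 fell to 3 UMIs in the Foxp2 cells beside 1105 in the cells without Foxp2, a ratio of 94.8 (32.4 to 461), and Pcp4l1, Shisa8, Fam81a, Rprml and Cpne6 fell by 4.56 to 5.14 on the log2 scale. Of 25 migration genes 11 were higher and 4 lower, with the cadherin Cdh8 at 5.55, 13.0, 6.22 and 9.20 CPM against 1.04, 2.16, 0.791 and 1.32 CPM (2.67 ± 0.41). Without KO young 5 of the 11 were still called. Of 21 positional factors 7 were higher, among them Foxp4, a relative of Foxp2, at 26.5, 3.25, 24.9 and 12.9 CPM against 5.58, 5.77, 5.14 and 6.14 CPM (1.93 ± 0.32), which was not higher in WT old. Tshz1, Pbx3, Meis2, Tshz2 and Zfhx3 were among the other higher factors, and Sall3, Pax6 and Nr2f2 were lower with Zic1 and Zic2. Without KO young neither Cdh8 nor Foxp4 was high enough to be tested, and Meis2, Zfhx3, Pax6 and Nr2f2 lost their calls.

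Of the other lists in the Foxp2 split, 4 of 14 neuroblast identity genes were higher (Cd24a, Sox4, Nrep and St8sia2), as were Fzd2 and Wnt5a beside Sfrp2 among 17 Wnt genes, with Lgr5 lower. Vax1 was higher and Gad1 lower of 13 interneuron genes, and Vax1 and Cd24a lost their calls without WT old, KO young or KO old. Fzd2 lost its call without KO young. Of 22 maturation genes 15 were lower and none higher, and of 11 olfactory bulb subtype genes 7 were lower and Chodl higher. Clu, Mcm2, Pde1b and Rasgrp2 were lower in the astroglial, progenitor and striatal lists, and none of the ensheathing glia, oligodendrocyte, interferon receptor and core interferon-stimulated genes tested passed.

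Splitting by Sfrp2 alone, 241 cells with at least 2 UMIs against 4555 with none, was described in the same way. Of 8082 genes 420 differed (5.2%), 160 higher (1.98%) and 260 lower (3.22%), and 114 differed without KO young. WT old held 11 of the 241 cells. Foxp2 rose with Sfrp2, at 252, 262, 305 and 244 CPM against 129, 119, 134 and 113 CPM (1.06 ± 0.13, adjusted p = 1.59e-05), with no overlap. Prokr2 stood at 64.4, 108, 42.9 and 77.3 CPM against 15.8, 10.3, 10.7 and 9.97 CPM (2.39 ± 0.32, adjusted p = 6.11e-05).

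Plekhh2, a cytoskeletal adaptor with a FERM domain, stood at 49.7, 61.7, 36.8 and 58.0 CPM against 2.31, 5.70, 4.10 and 7.02 CPM (3.48 ± 0.40, adjusted p = 9.46e-06). Pappa, a protease that frees insulin-like growth factors, stood at 52.7, 30.8, 119 and 81.2 CPM against 10.4, 16.0, 17.3 and 12.6 CPM (2.46 ± 0.29). For both genes the Sfrp2 cells of a library lay above its cells without Sfrp2, but in WT old they held 4 UMIs of Plekhh2 and 2 of Pappa. C130073E24Rik and Edaradd were higher too. Ano3 had no UMI in the Sfrp2 cells, at least 19.4-fold lower at the floor of 3 counts over the class, and Nrgn, Syt10, Penk, Rbfox1 and Kcnj4 were lower with few UMIs left.

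Immediate early genes were higher in Sfrp2 cells for 7 of 10 tested, with a median log2 change of 1.29 beside -0.02 over all genes. Fos stood at 1782, 524, 1180 and 1160 CPM against 427, 279, 312 and 236 CPM (1.88 ± 0.15, adjusted p = 2.26e-07). Egr1, an activity-regulated zinc finger factor, stood at 1053, 401, 660 and 835 CPM against 305, 436, 193 and 263 CPM (1.44 ± 0.19), higher in 3 of 4 libraries. Fosb, Nr4a1, Ier2, Junb and Btg2 were the others, and in the Foxp2 split Fos (0.40 ± 0.11) and Ier2 (0.34 ± 0.11) were higher and Nr4a1 lower. Immediate early genes are known for rapid, brief induction by stimuli that reach a cell. Without KO young 3 of the 7 were still called, Fos, Egr1 and Ier2, and all 3 of the Foxp2 split lost their calls.

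Of the interneuron genes, Prox1 was lower with Sfrp2. Prox1, a homeodomain factor of interneuron and granule cell lineages, stood at 43.9, 46.3, 57.3 and 61.9 CPM in Sfrp2 cells against 124, 132, 131 and 131 CPM (-1.30 ± 0.19, adjusted p = 0.00016). Vax1 (-1.22 ± 0.28), Gad1 (-1.13 ± 0.24) and Dlx6os1 (-0.38 ± 0.11) were lower too, 4 of 11 tested, and without KO young Prox1 alone of them was called. Among migration genes the neuropilin Nrp2 stood at 41.0, 0, 26.6 and 27.1 CPM against 1.70, 9.12, 3.34 and 4.43 CPM (3.02 ± 0.54), and Erbb4, Robo2 and Prokr2 were higher and Epha4 and Epha5 lower, of 20 tested. Nrp2 was not called without WT young.

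Of the other lists in the Sfrp2 split, Tshz1 (1.26 ± 0.13), Pbx3 (1.01 ± 0.11), Meis2, Bcl11a and Foxp2 were the 5 higher of 20 positional factors and Foxp1 was lower. Zic1 (-1.93 ± 0.63, adjusted p = 0.0961 by edgeR) and Zic2 (-0.83 ± 0.68, adjusted p = 0.648) did not pass. The Sfrp2 cells held UMIs of them in KO young alone, where Zic2 stood at 18.4 against 11.9 CPM and Zic1 at 12.3 against 19.2 CPM. Fzd2 was the 1 higher of 14 Wnt genes, and Nrep was higher and Tubb2b, Elavl4 and Tubb3 lower of 14 identity genes. Of 21 maturation genes 7 were lower, and of 9 olfactory bulb subtype genes Pcp4, Penk and Tpbg. Fabp7 of the 2 ensheathing glia genes was lower, not called without cells holding UMIs of another cell type, and Btg2 was the 1 higher of 4 progenitor genes. Without KO young 2 of the 7 maturation genes were still called, and Fzd2, Nrep, Tubb2b, Elavl4, Tubb3, Meis2, Bcl11a and Foxp1 were not. No striatal, astroglial, oligodendrocyte or interferon-related gene tested passed.

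**Figure D4:**
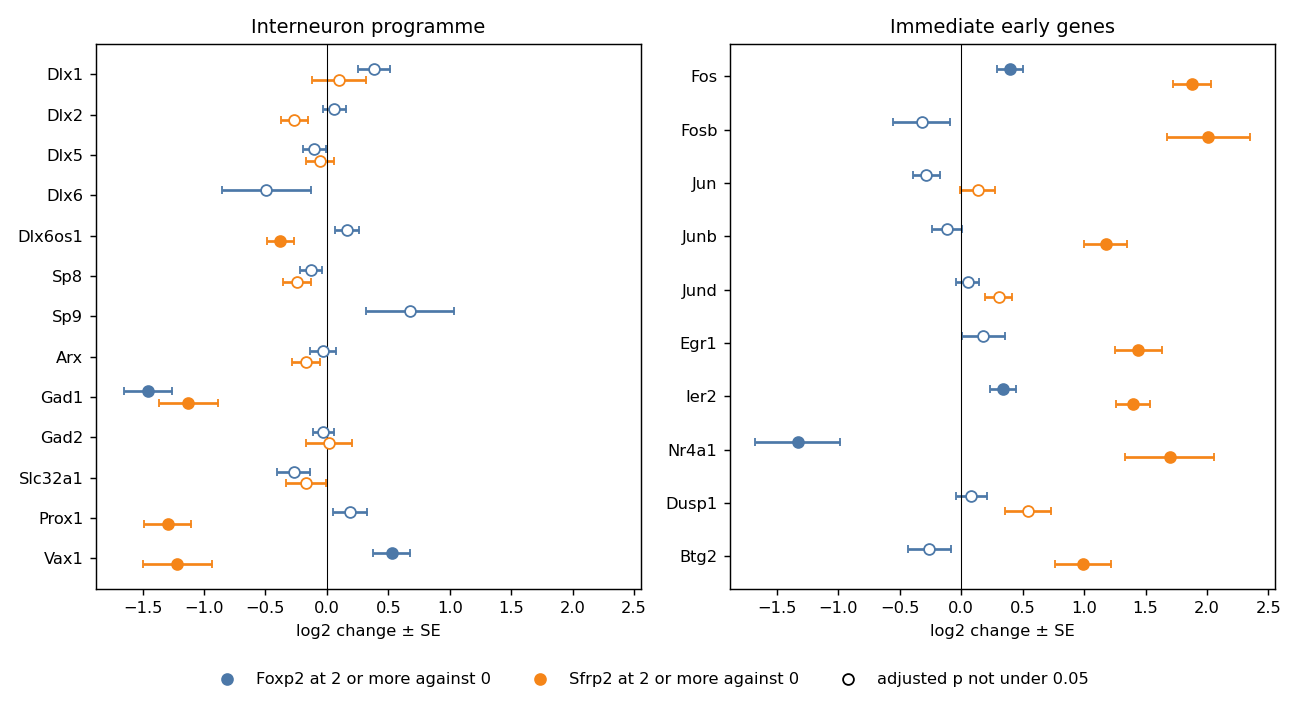
Log2 change ± SE of interneuron programme genes (left) and immediate early genes (right) in gated neuroblasts split by Foxp2 (blue) and by Sfrp2 (orange), with filled symbols for adjusted p under 0.05. Prox1 and Vax1 lie left of 0 in the Sfrp2 split and right of 0 in the Foxp2 split, where Vax1 passed the test and Prox1 did not, and Fos, Fosb, Junb, Egr1 and Ier2 lie between 1.17 and 2.01 in the Sfrp2 split.

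The difference between the 2 kinds of members was tested directly, with 777 Foxp2-only against 115 Sfrp2-only members. Of 3595 genes 107 differed (2.98%), 53 higher in Foxp2-only cells (1.47%) and 54 higher in Sfrp2-only cells (1.5%). Without WT old, which held 6 of the Sfrp2-only cells, 196 genes differed. Prox1 stood at 122, 186, 139 and 159 CPM in Foxp2-only and at 22.4, 24.6, 34.1 and 47.8 CPM in Sfrp2-only members (2.14 ± 0.30, adjusted p = 5.55e-05). Flrt2, an adhesion molecule, and Kif5c, a kinesin motor, were higher in Foxp2-only members as well (1.84 ± 0.26 and 1.69 ± 0.22), with no overlap between the classes. In WT old the Sfrp2-only values rested on 1 UMI of Prox1, 4 of Flrt2 and 3 of Kif5c.

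Vax1, Dlx6os1, Sox11, Tubb2b, Elavl4, Tshz2 and Plxna4 were the other genes of the lists higher in Foxp2-only members, and Minar2 and Ezr completed the named ones. Cpne4, a calcium-dependent membrane-binding protein, stood at 10.2, 59.4, 12.5 and 2.53 CPM in Foxp2-only against 83.8, 98.3, 85.2 and 103 CPM in Sfrp2-only members (-2.66 ± 0.44). B3glct, a glycosyltransferase, stood at 4.39, 7.92, 4.69 and 15.2 CPM against 61.5, 49.1, 62.5 and 47.8 CPM (-3.08 ± 0.55). Synpr stood at 110, 119, 77.1 and 83.4 CPM against 274, 737, 244 and 267 CPM (-1.70 ± 0.20, adjusted p = 4.37e-06). All 3 were higher in the Sfrp2-only members of every library, but in WT old these held 4 UMIs of Cpne4 and 2 of B3glct.

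Bcl11a, Tshz1, Pcp4, Snap25, Gria2, Arpp21, Fgf12 and Mt1 were also higher in Sfrp2-only members, and 44.0% of the Mt1 UMIs there came from 1 cell. Of 8 immediate early genes tested 5 were higher in Sfrp2-only members. Fos stood at 529, 261, 319 and 288 CPM in Foxp2-only against 2073, 172, 1255 and 984 CPM in Sfrp2-only members (-1.72 ± 0.17, adjusted p = 3.96e-07). WT old, with its 6 cells, was the exception for Fos, Egr1, Ier2 and Junb.

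None of the 5 Wnt genes, and neither the 1 striatal nor the 1 ensheathing glia gene tested, passed between the classes. Without KO young Vax1, Dlx6os1, Sox11, Tubb2b, Bcl11a, Tshz1, Pcp4, Snap25, Gria2 and Btg2 lost their calls.

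The EYFP transgene was detected in 72.1% of members, 68.9% of the remaining neuroblasts, 25.7% of Zic neuroblasts and 4.29% of microglia-type cells. In members it stood at 462, 231, 371 and 288 CPM and in Zic neuroblasts at 274, 0, 72.6 and 7.23 CPM (2.05 ± 0.37, adjusted p = 0.00111). Members and the remaining neuroblasts (607, 230, 431 and 286 CPM) were not separated (-0.15 ± 0.26, adjusted p = 0.842). In the Sfrp2 split EYFP was lower in the Sfrp2 cells, at 456, 154, 292 and 220 CPM against 581, 220, 409 and 281 CPM (-0.43 ± 0.12, adjusted p = 0.0382 by edgeR). It did not pass in the Foxp2 split (0.04 ± 0.13) or between Foxp2-only and Sfrp2-only members (0.51 ± 0.16, adjusted p = 0.103). Cells were sorted partly on this reporter, so its level is tied to the gate that let a cell in.

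Hashtags, antibody-linked barcodes that mark the tissue, were read for few neuroblasts. A hashtag was called in 138 of 1189 members (11.6%), beside 32.3% of retained cells and 99.4% of microglia-type cells. Of those 138, 85 carried a vSVZ tag and 53 a RoB tag, 61.6% vSVZ (52.9 to 69.7). Requiring a posterior of 0.95 left 18 members, 38.9% of them vSVZ (17.3 to 64.3), so the direction turned with the setting. Zic neuroblasts had 10 vSVZ and 12 RoB tags.

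Ages and genotypes were compared in members as values without a test. The genes targeted in KO mice were read first. Ifngr1 stood at 9.60, 7.98, 1.06 and 1.35 CPM (19, 3, 3 and 1 UMIs) and Ifnar1 at 25.3, 26.6, 11.7 and 10.8 CPM (50, 10, 33 and 8 UMIs). Both were lower in KO members, with 95% Poisson intervals apart in young mice and overlapping in old ones. Their partner subunits Ifnar2 (57.1, 29.3, 52.7 and 35.0 CPM) and Ifngr2 (41.9, 34.6, 35.0 and 41.7 CPM) interleaved between genotypes. Reads from the 3' end need not cover the deleted part of a gene, so the UMIs left in KO libraries check nothing.

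Core interferon-stimulated genes, the kind that interferon induces in responding cells, summed to 115, 144, 111 and 129 CPM in members, with overlapping intervals. Of the 40 genes found, 20 to 29 were at 0 in each library.

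Genes were named where the level differed by over 1 on the log2 scale with Poisson intervals apart, among genes with at least 20 UMIs over both libraries. From young to old this held for 282 of 7840 genes in WT (3.6%), 216 higher (2.76%) and 66 lower (0.842%), and for 127 of 8856 in KO (1.43%), 55 higher (0.621%) and 72 lower (0.813%). From WT to KO it held for 157 of 9343 genes in young mice (1.68%), 125 higher (1.34%) and 32 lower (0.343%), and for 103 of 6258 in old mice (1.65%), 25 higher (0.399%) and 78 lower (1.25%). WT old rested on 67 cells, and comparisons that share a library share its error. Chase length (6 against 9 weeks) cannot be told apart from genotype in young mice or from age in WT mice, nor age (80 against 92 to 105 weeks) from genotype in old mice.

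Of 7791 genes, 7 (0.0898%) differed with age in the same direction in both genotypes, 6 higher (0.077%) and 1 lower (0.0128%) in old mice. Cpne4 (22.7, 69.1, 29.3 and 63.3 CPM), Cacna2d1, a calcium channel subunit (22.2, 53.2, 18.0 and 37.7 CPM), and Hrk, a pro-apoptotic BH3 protein (8.08, 31.9, 10.6 and 29.6 CPM), were higher in both old libraries than in both young ones. In WT old 1 cell held 42.3% of the Cpne4 UMIs (11 of 26), 30.0% of those of Cacna2d1 (6 of 20) and 25.0% of those of Hrk (3 of 12). Cpne4 was also higher in Sfrp2-only members, and the part of this was not tested. Their share of members was 9.37%, 8.96%, 6.94% and 20.8%, highest in KO old and alike in the WT libraries. The remaining neuroblasts had 18.0, 150, 46.6 and 136 CPM of Cpne4 and 21.04, 122, 61.7 and 146 CPM of Cacna2d1. Both genes were thus higher in old mice there as well. Hrk, at 9.76, 13.8, 15.8 and 8.28 CPM in the remaining neuroblasts, was not higher in KO old than in KO young. In members, Gfod2 was lower in both old libraries, at 31.3, 5.32, 31.8 and 13.5 CPM, and it was lower in both in the remaining neuroblasts too. The metallothioneins Mt3 and Mt1 were higher as well, but 1 cell held 57.1% and 77.4% of the Mt3 UMIs in WT old and KO old, and without cells holding UMIs of another type the log2 ratios of Mt3 and Mt1 in KO were -0.12 and -0.23. In opposite directions, 4 genes (0.0513%) differed with age, 3 higher (0.0385%) and 1 lower (0.0128%) in old WT mice.

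Of 6256 genes, 1 (0.016%) differed with genotype in the same direction at both ages. It was Wdfy1, an adaptor of Toll-like receptor signalling, at 11.6, 5.32, 46.3 and 48.5 CPM. The intervals were 7.37 to 17.4 and 0.644 to 19.2 in WT and 38.7 to 54.9 and 33.9 to 67.1 in KO. The remaining neuroblasts had 9.30, 20.1, 60.9 and 57.9 CPM, higher in KO as well. Prokr2 stood at 43.5, 47.9, 27.6 and 41.7 CPM with overlapping intervals except between young WT and young KO mice, whose nearest bounds were 34.8 and 34.4. In opposite directions at the 2 ages, 5 genes differed with genotype (0.0799%), all higher in young KO mice.

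**Figure D5:**
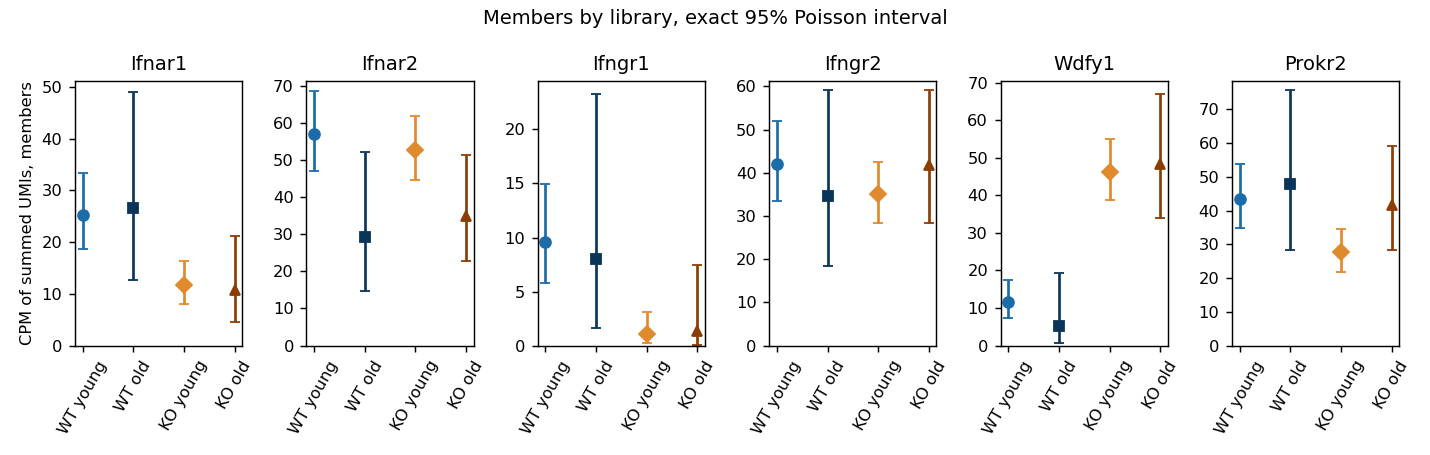
CPM in members of the 4 interferon receptor subunits, Wdfy1 and Prokr2 by library, with exact 95% Poisson intervals of the summed UMIs. Wdfy1 is higher and Ifngr1 lower in both KO libraries, and the wide bars of WT old reflect its 67 cells.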

How the data were processed

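Expression was analysed in the 4 expression libraries of the 9 samples. The 4 hashtag libraries were used for tissue calls, and 1 sample without a group was not analysed here. The authors deposited UMI counts per barcode and gene, made with kallisto and bustools, and hashtag counts per barcode, per the labels with build GRCm38. The deposited matrix was not filtered for cells. Here cells were kept with 1000 to 20000 UMIs, 100 to 6000 genes and under 10% mitochondrial UMIs. Positions came from GENCODE vM21 (GRCm38) by gene ID, and 32158 of 32287 IDs had a symbol. Doublets were predicted (scanpy 1.11.5) but kept in the main fits.

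For each library, the UMIs of a class were added up. The sums went into edgeR's quasi-likelihood test (version 4.0.16, R 4.3.3) with TMM factors, filterByExpr and library as block, and a gene was called at a Benjamini-Hochberg adjusted p under 0.05. Members against Zic and remaining neuroblasts shared 1 fit. The SE of a log2 change was its absolute value divided by the square root of the F statistic of the test. Genes named by size of change had to be called, with the same sign in 4 of 4 libraries and on average at least 50 CPM in the higher class. A library with no UMI in either class counted as lower, as WT young did for Gabra5. Of these genes, the 15 (members against Zic), 8 (remaining) or 6 (other fits) with the largest log2 change each way were named. Genes of the rule were left out, and the genes of 17 lists were added. Microglia-type cells held at least 5 UMIs of C1qa, C1qb and C1qc and endothelial-type cells at least 5 of Cldn5 and Flt1, both without Dcx. On simulated sums, log2 changes of 1 in 200 genes were recovered for 44.5% against Zic and 87.5% against the remaining neuroblasts, 83% and 59.5% in the Foxp2 and Sfrp2 splits and 66.5% between members. Hashtags were called with a mixture of 5 components. Members and lists were chosen with earlier results of these data known, so they are not independent evidence. Libraries pool 2 mice each, and p-values rest on how much the difference between classes varied over these 4 libraries, not on the spread between mice. Alternatives were other size factors, DESeq2 1.42.0, no filter, no library block, leaving out each library, thinning, depth, doublet, Dcx and threshold settings, and 2 added after seeing the data (young libraries alone, and without cells holding 10 or more UMIs of another cell type). Some named genes are not reported here.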

Additional observations from a re-analysis of the deposited data

Results flagged for a closer look

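In members, genes moved in opposite directions with age in the 2 genotypes, and 5 moved in opposite directions with genotype at the 2 ages. These differences were not tested, because each group is 1 library and few members had a hashtag that could tell its 2 mice apart. With age, Fabp7 had a log2 ratio of 2.05 in WT and -1.50 in KO, and Apod, which is abundant in ensheathing glia, 2.49 and -2.06. In KO young 1 cell held 36.1% of the Fabp7 UMIs and 36.5% of the Apod UMIs, and without cells holding UMIs of another cell type the KO ratios were 1.01 and -0.41. Snhg11 had ratios of 4.33 and -2.78, with 81.5% of its WT old UMIs in 1 cell and 42.1% of its KO young UMIs in 1 cell. In the remaining neuroblasts Snhg11 stood at 102, 1017, 437 and 1179 CPM, higher in old mice of both genotypes.

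With genotype, the log2 ratio was 1.52 in young and -1.65 in old mice for Syne1, 1.81 and -1.83 for Atp1b2, 1.99 and -3.36 for Syt7, 2.61 and -4.51 for Snhg11, and 1.61 and -2.98 for Pianp. One cell of WT old held 51.9% of the Syne1, 53.8% of the Syt7 and 75.0% of the Pianp UMIs.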

How the results depend on the processing

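KO young, the library with most members, decided much of the counts. Leaving out 1 library gave 799 to 1779 genes against Zic neuroblasts, 197 to 606 against the remaining neuroblasts, 513 to 1492 in the Foxp2 split, 114 to 546 in the Sfrp2 split and 37 to 196 between members, the lowest without KO young in the first 4. Without the library block the counts were 1015, 36, 453, 114 and 70, and thinned to 1000 UMIs 311, 208, 251, 110 and 36. DESeq2 called 791 in the Foxp2 split, 257 in the Sfrp2 split and 45 between members, and no low count filter called 642 in the Sfrp2 split. With the young libraries alone 987 differed against Zic neuroblasts. Of 101, 52, 78, 49 and 28 named and list genes, 58, 8, 39, 13 and 10 kept their call under every alternative that gave a value. Directions reversed for Dlx1 against Zic neuroblasts when thinned (-0.15, adjusted p = 0.92 by edgeR), Npy without cells of other-type UMIs (0.24, adjusted p = 0.75) and Fabp7 in the Sfrp2 split at 1 UMI (0.22, adjusted p = 0.84).

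Members as a share of gated neuroblasts were 4.29%, 3.69%, 4.71% and 5.78% when thinned and 10.6%, 13.9%, 16.4% and 17.9% at a threshold of 3 UMIs. Of retained cells they were 1.01%, 0.330%, 0.994% and 0.557%, and 4.23%, 1.82%, 4.75% and 2.75%, with 6.20% in WT young and 6.78% in KO young at 2 Dcx UMIs. At a log2 limit of 0.5 the genes that differed in members numbered 580 and 237 with age in WT and KO and 371 and 156 with genotype in young and old, and 55, 29, 49 and 11 when thinned. At a posterior of 0.95 the vSVZ share was 38.9%. No paired analysis of ages or genotypes was possible because each age and genotype group is 1 library. Class comparisons had library as block. The causes of these shifts were not tested.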
